A study of Mus musculus with 18 samples.

Results

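The 18 livers of this microarray series were split by the level of 7 circadian clock genes, and the resulting groups of 9 livers were compared across the other genes. The clock score of a liver was the mean log2 level of Dbp, Tef, Nr1d1 and Per3 minus the mean log2 level of Arntl, Npas2 and Clock. Within each diet the 3 livers with the highest score formed the high group and the 3 with the lowest score formed the low group, so that all 18 arrays of the series entered and each diet gave 3 arrays to either side. The members of the groups were thus chosen by the measured levels of these 7 genes, so their values are a description with no test, and every test of the split below concerns genes outside the score.

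The livers came from male C57BL/6J mice (the strain is also spelled C56BL/6J in the labels) that were 5 weeks old at the start and were then fed for 20 weeks. The AIN93G control diet, the same diet with 0.05% quercetin (a plant flavonol) and the same diet with 1% quercetin were each given to 12 mice, housed 3 to a cage, and 6 livers per diet were hybridised. The photocycle had 12 hours of light and a dark period from clock hour 8 to 20, and the labels used here give neither the hour at which each mouse was killed nor its cage. Each array held the RNA of 1 mouse on an Affymetrix 3′ expression array, and nothing in the labels gives a meaning to the replicate numbers.

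The mammalian clock is a feedback loop. CLOCK or its relative NPAS2 pairs with BMAL1, the product of Arntl, and this pair drives the Per, Cry, Nr1d1 and Dbp genes through E-box elements, while PER and CRY proteins repress it. REV-ERB receptors, made from Nr1d1 and Nr1d2, repress Arntl, Npas2, Clock and Nfil3 through ROR elements (ROREs), and DBP, TEF and HLF act on D-box elements where the product of Nfil3 opposes them. In mouse liver Dbp and Arntl are known to peak at nearly opposite times of day, which is why a difference between these gene sets is a common stand-in for clock phase.

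Promoter windows of the scoring genes are shown because E-boxes, D-boxes and ROREs are the known control elements of clock genes. Of 11 RefSeq promoter windows of the 7 genes (GRCm38.p6, 250 bases before to 50 after a transcription start), 4 windows of 3 genes held a searched element on either strand, with the matched bases in capitals. Both windows of Tef, chr15:81802423-81802722 and chr15:81811164-81811463 on the plus strand, held the E-box CACGTG, beginning 127 and 138 bases before the start. The window of Per3, chr4:151044616-151044915 on the minus strand, held the D-box TTATGTAA at 205 and again at 158 bases before the start. Of the 2 windows of Arntl, 1, at chr7:113207261-113207560 on the plus strand, held the RORE core TAGGTCA beginning at base 31 after the start, and the other held no searched element. Windows of Dbp, Nr1d1, Npas2 and Clock held none of these letters within the bases searched.
Tef, first start: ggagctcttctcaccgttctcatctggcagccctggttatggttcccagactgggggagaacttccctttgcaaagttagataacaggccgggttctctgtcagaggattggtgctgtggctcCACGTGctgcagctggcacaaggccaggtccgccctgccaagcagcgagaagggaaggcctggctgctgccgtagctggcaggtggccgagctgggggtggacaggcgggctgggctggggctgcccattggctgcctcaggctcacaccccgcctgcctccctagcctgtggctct
Tef, second start: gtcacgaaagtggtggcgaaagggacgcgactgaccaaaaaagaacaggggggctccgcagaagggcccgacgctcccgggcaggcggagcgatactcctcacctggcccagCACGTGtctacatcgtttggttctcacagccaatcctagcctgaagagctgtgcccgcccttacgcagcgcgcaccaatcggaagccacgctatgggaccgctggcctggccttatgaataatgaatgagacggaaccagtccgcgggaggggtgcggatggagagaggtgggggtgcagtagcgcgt
Per3: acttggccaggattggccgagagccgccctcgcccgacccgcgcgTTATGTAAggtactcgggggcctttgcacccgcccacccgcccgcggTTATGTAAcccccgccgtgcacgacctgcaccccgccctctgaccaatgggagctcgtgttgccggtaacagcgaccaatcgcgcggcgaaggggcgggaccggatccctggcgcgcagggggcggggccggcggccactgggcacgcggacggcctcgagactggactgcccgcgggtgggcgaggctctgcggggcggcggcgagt
Arntl: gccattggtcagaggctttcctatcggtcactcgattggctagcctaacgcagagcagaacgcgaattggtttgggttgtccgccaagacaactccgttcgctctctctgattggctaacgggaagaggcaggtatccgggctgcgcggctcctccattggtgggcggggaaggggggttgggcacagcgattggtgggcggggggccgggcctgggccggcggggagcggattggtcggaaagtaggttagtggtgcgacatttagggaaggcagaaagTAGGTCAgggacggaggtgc

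Among 32851 promoter windows of the same length, 7.15% held the E-box, 1.06% a D-box (TTATGTAA or TTACGTAA) and 2.61% the RORE core. A match describes the letters in a window and says nothing about binding in these livers.

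Levels below are log2(intensity + 16) after the arrays were set to the same median, so differences of dim probe sets are understated. Scores of the high livers lay between -0.996 and 1.79 with a median of -0.12, and those of the low livers between -2.03 and -1.05 with a median of -1.58. On the control diet the high scores were 1.79, 0.67 and -0.62 and the low scores were -1.28, -1.64 and -2.03. On 0.05% quercetin the high scores were 0.14, -0.12 and -0.16 and the low scores were -1.10, -1.58 and -1.70. The high group was therefore not a uniform set, since 1 control liver of that group scored closer to the low livers than to the other two. On 1% quercetin the high scores were 0.34, -0.70 and -0.996 and the low scores were -1.05, -1.46 and -1.63.

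The values just inside and just outside the division were -0.62 and -1.28 on the control diet, -0.16 and -1.10 on 0.05% quercetin, and -0.996 and -1.05 on 1% quercetin. The gap on 1% quercetin was 0.054, so replicates 3 and 4 of that diet were nearly tied. Quantile normalized values put these 2 livers in each other's group. Across the 6 livers of a diet the score averaged -0.52 ± 1.48 on the control diet, -0.75 ± 0.81 with 0.05% quercetin and -0.92 ± 0.70 on 1% quercetin (SD, n = 6 each).

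**Figure D1:**
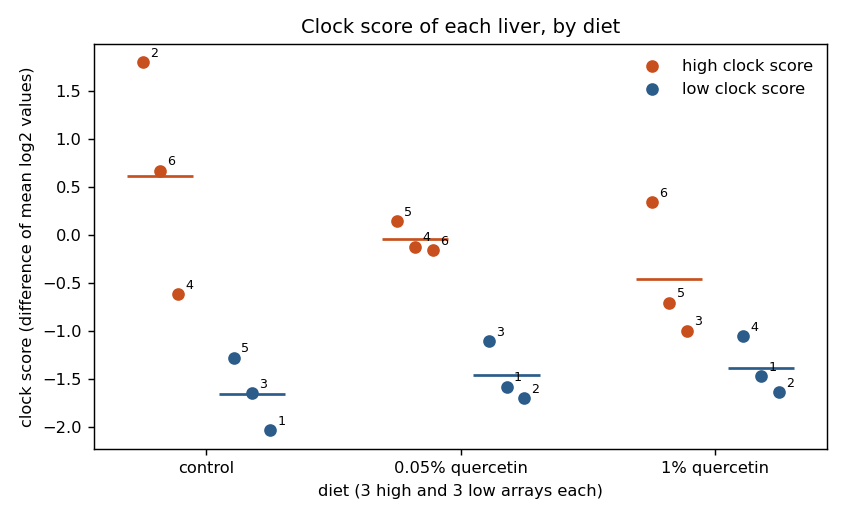
Clock score of each of the 18 livers, in log2 units, by diet (x axis, 3 high and 3 low arrays each), with replicate numbers beside the points and a bar at the mean of 3. The high scores spread from -0.996 to 1.79, while all low scores lie between -2.03 and -1.05, and the 1% quercetin groups meet at a gap of 0.054.

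Dbp, a PAR bZIP transcription factor and a direct CLOCK and BMAL1 target, differed most of the 7 genes. It had levels of 9.60, 8.93 and 6.14 in high control livers, against 5.74, 5.78 and 5.39 in low control livers. On 0.05% quercetin it had 8.09, 8.57 and 7.90 in high livers, against 6.17, 5.51 and 5.37 in low livers. On 1% quercetin it had 7.97, 6.67 and 6.40 in high livers, against 6.67, 5.58 and 5.58 in low livers. The groups were apart within the control and 0.05% quercetin diets and overlapped on 1% quercetin. The difference over all 18 livers was 2.05, and the gene's other probe set gave 1.89.

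Tef, the relative of Dbp, averaged 9.14 ± 0.37 in high livers and 8.40 ± 0.20 in low livers (SD, n = 9 each). Its ranges, 8.70 to 9.97 in high livers and 8.06 to 8.67 in low livers, did not overlap, and it was the 1 scoring gene of which this was true. Its other probe set above the filter on dim signal differed by 0.27, with overlapping ranges of 4.78 to 5.54 in high livers and 4.27 to 5.29 in low livers. Per3, a period gene, averaged 5.91 ± 0.71 in high livers and 5.22 ± 0.27 in low livers (SD, n = 9 each), with a difference of 1.23 on the control diet, 0.02 with 0.05% quercetin and 0.83 on 1% quercetin. The 3 other Per3 probe sets above the filter differed by 0.34, 0.30 and -0.23 over all livers. On 0.05% quercetin they gave 0.67, 0.34 and -0.43 in the same order. The score used the brightest Per3 probe set alone.

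Nr1d1, which encodes REV-ERBα, did not follow the score. Its level was 4.25 to 6.80 with a median of 5.61 in high livers and 4.29 to 5.96 with a median of 5.50 in low livers. The difference was 0.38 on the control diet, 0.79 with 0.05% quercetin and -0.49 on 1% quercetin, and without the 0.05% quercetin diet it was -0.06. By diet, Nr1d1 averaged 4.97 in control livers, 6.05 with 0.05% quercetin and 5.04 on 1% quercetin. It was read by 1 probe set and was dim. On 1% quercetin it had 4.25, 4.40 and 5.72 in high livers, against 4.39, 5.50 and 5.96 in low livers, near the filter at 4.69.

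On the other side of the score, Npas2 averaged 5.26 ± 0.67 in high livers and 6.37 ± 0.53 in low livers (SD, n = 9 each), a difference of -1.11. Arntl averaged 7.68 ± 0.42 in high livers and 8.19 ± 0.28 in low livers (SD, n = 9 each), a difference of -0.51 that its other probe set gave as -0.58. Both genes were lower in the high group within each of the 3 diets. Clock differed by -0.20 over all livers, by -0.58 on the control diet, 0.11 with 0.05% quercetin and -0.13 on 1% quercetin. In all, 5 of the 7 scoring genes differed in the same direction in the 3 diets, and Nr1d1 and Clock did not. Since no killing times are given here, and Nr1d1, though dim, went against the score on 1% quercetin, the split is described as a clock score and not as a phase.

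**Figure D2:**
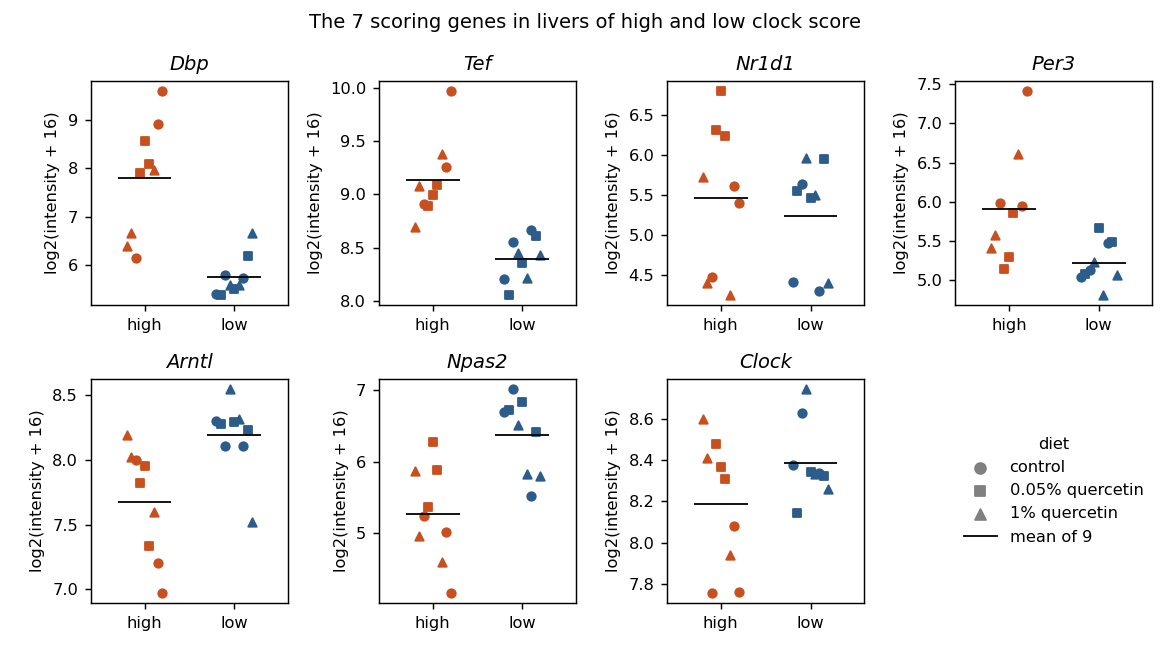
Levels of the 7 scoring genes, log2(intensity + 16), in the 9 high and 9 low livers, with diets as symbols and a line at the mean of 9. Dbp, Tef and Per3 are higher and Npas2 and Arntl lower on average in high livers, the Tef groups do not overlap, and the Nr1d1 groups overlap from 4.29 to 5.96, with 3 high livers above that range.

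No gene outside the score passed the test. With diet as a block, limma called 0 of 12878 genes between high and low livers at an adjusted p under 0.05 (0%), and the smallest adjusted p was 0.987. At an unadjusted p under 0.05 there were 559 genes (4.34%), of which 220 were higher (1.71%) and 339 lower (2.63%) in high livers, against 644 that the threshold alone would give. Other scalings moved this split, to 499 higher and 54 lower with the values as deposited, 351 and 243 with quantile normalization, and 321 and 161 with equal medians over all probe sets. The ranges of the 9 high and 9 low livers stayed apart for 0 genes (0%). With the score as a continuous measure in place of the 2 groups, limma again called 0 genes (0%), 688 had an unadjusted p under 0.05 (5.34%), and the smallest adjusted p was 0.377. The genes below are therefore given with their values, and an unadjusted p does not make them a call.

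Clock genes outside the score differed by -0.59 to 0.62, and none passed the adjusted test. Of 22 tested members of the clock lists, 8 were higher and 14 lower in high livers, 7 had the same sign in all 3 diets, where 2618 of all genes did (20.3%), and 2, Nr1d2 and Nfil3, had an unadjusted p under 0.05, where 4.34% of all genes did. With the continuous score 6 of the 22 did, against 5.34% of all genes, and these were Nr1d2, Nfil3, Cry1, Hlf, Cry2 and Csnk2a1. Arntl2, Bhlhe41 and Ciart lay below the filter on dim signal.

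Nr1d2 encodes REV-ERBβ, the second REV-ERB receptor. It had levels of 10.57, 10.55 and 9.93 in high control livers, against 10.14, 9.89 and 8.91 in low control livers. On 0.05% quercetin it had 10.39, 10.65 and 10.40 in high livers, against 10.03, 9.18 and 9.20 in low livers. On 1% quercetin it had 10.20, 9.64 and 10.11 in high livers, against 10.01, 9.61 and 9.92 in low livers. High and low livers did not overlap with 0.05% quercetin and overlapped on the other diets. The difference was 0.62 ± 0.18 (SE; n = 9 each, limma adjusted p = 0.987), and 8 of 9 high livers lay above the mean of the low ones.

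Nfil3, the repressor that competes with DBP, TEF and HLF at D-boxes and is itself a REV-ERB target, differed in the other direction. It ranged from 8.69 to 10.36 with a median of 9.34 in high livers and from 9.34 to 10.61 with a median of 10.16 in low livers. The groups overlapped, mostly through 1% quercetin, where high livers had 9.88, 10.06 and 10.36, against 9.34, 10.06 and 10.61 in low livers. The difference was -0.59 ± 0.20 (SE; n = 9 each, limma adjusted p = 0.987). Within diets it was -0.82 on the control diet, -1.05 with 0.05% quercetin and 0.10 on 1% quercetin.

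Among the clock repressors, Cry1, which encodes a cryptochrome, ranged from 6.96 to 8.32 with a median of 7.42 in high livers and from 6.95 to 8.40 with a median of 7.93 in low livers. Its difference of -0.35 ± 0.20 did not pass (SE; n = 9 each, limma adjusted p = 0.987), with -0.82 on the control diet, -0.61 with 0.05% quercetin and 0.38 on 1% quercetin. Bhlhe40, the E-box repressor DEC1, differed by 0.40 ± 0.24 with 0.33, 0.49 and 0.38 on the control, 0.05% and 1% quercetin diets. Per1 and Per2, the period genes that respond to light and hormones as well as to the clock, differed by -0.02 ± 0.19 and 0.16 ± 0.29. Per2 had differences of 0.22, -0.60 and 0.87 on the control, 0.05% and 1% quercetin diets, so the small value over all livers stood for diets that went opposite ways.

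Hlf, the third PAR bZIP factor, differed by 0.17 ± 0.12 and had the same sign in each diet, at 0.19, 0.22 and 0.11 on the control, 0.05% and 1% quercetin diets. The other Hlf probe set above the filter gave -0.001 over all livers. Rora, an activator at ROREs, differed by 0.01 ± 0.11, and its 6 other probe sets above the filter gave -0.39 to 0.06. Rorb, its relative, differed by -0.22 ± 0.11 with 0.20, -0.57 and -0.30 on these diets. Rorb was dim, with 4.02 to 5.31 in high livers and 4.55 to 5.19 in low livers, near the filter at 4.69. Genes of the kinases and ubiquitin ligases that act on clock proteins were lower in 10 of 11 cases, with a median difference of -0.17, while the median over all 12878 genes was -0.01 and 44.5% of them were higher. By diet 6 of the 11 were higher on the control diet, 3 with 0.05% quercetin and 1 on 1% quercetin, with medians of 0.01, -0.09 and -0.28. With the values as deposited 8 of 11 were lower over all livers. None of the 11 had an unadjusted p under 0.05 in the scaled values. Other kinase genes of the list were Csnk1d at -0.11 ± 0.06 and Csnk2a1 at -0.26 ± 0.18, and other ligase genes were Btrc at -0.19 ± 0.09 and Fbxw7 at -0.18 ± 0.10. The 2 other probe sets of Btrc above the filter went the other way, at 0.035 and 0.32. Those of Fbxw11 gave -0.19 to 0.18, and that of Fbxw7 gave -0.02. Those of Csnk1d gave -0.05 to -0.001, those of Csnk2a1 -0.28 to -0.03 and those of Gsk3b -0.32 to -0.004. Gsk3b, which phosphorylates several clock proteins, had the widest negative difference of the list at -0.30 ± 0.15, with 0.01 on the control diet, -0.09 with 0.05% quercetin and -0.82 on 1% quercetin. Usp2, a rhythmic deubiquitinase, was the 1 member that was higher, at 0.33 ± 0.19.

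**Figure D3:**
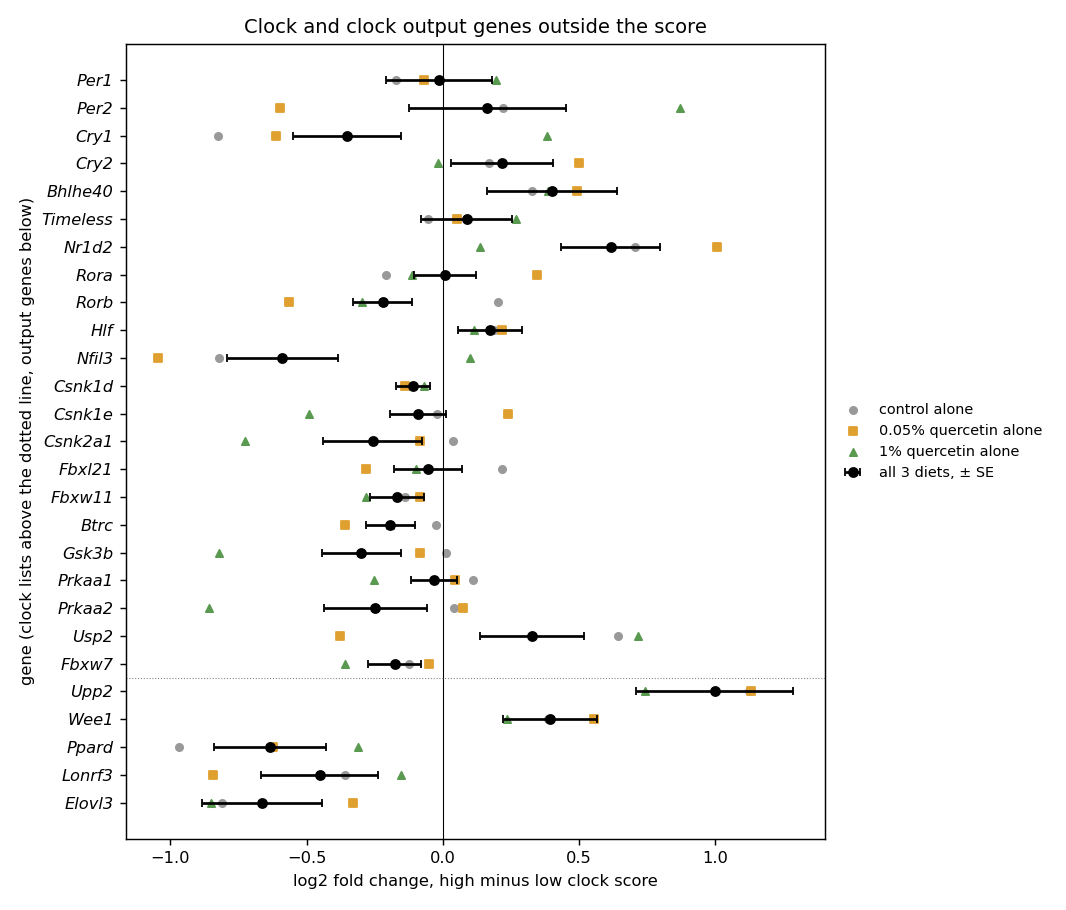
Differences between high and low livers on the log2(intensity + 16) scale (x axis) for 22 clock list members and, below the dotted line, 5 output genes, as the estimate over all 3 diets with its SE (black) and within each diet. Nr1d2 at 0.62 and Nfil3 at -0.59 lie furthest from 0 among the clock genes, and several genes, among them Per2 and Cry1, have within-diet values on both sides of 0.

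The lists of known liver output genes held no call. Among 21 tested E-box and D-box output genes 11 were higher and 10 lower, with a median of 0.03, and 4 had an unadjusted p under 0.05, namely Upp2 and Wee1 on the higher side and Ppard and Lonrf3 on the lower side, where 4.34% of all genes had such a p. The medians of this list were 0.07 on the control diet, -0.38 with 0.05% quercetin and 0.13 on 1% quercetin. Among 8 tested RORE output genes 2 were higher and 6 lower, with a median of -0.11, and 2 had an unadjusted p under 0.05, Nfil3 and Elovl3. The medians of the RORE list by diet were -0.49, 0.02 and 0.03. With the values as deposited 4 of the 8 were lower. These genes were picked for description after their values were seen.

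Upp2 encodes the liver form of uridine phosphorylase. It had levels of 10.03, 9.60 and 8.37 in high control livers, against 8.34, 8.85 and 7.43 in low control livers. On 0.05% quercetin it had 8.83, 9.89 and 8.36 in high livers, against 8.62, 7.67 and 7.39 in low livers. On 1% quercetin it had 7.79, 7.55 and 8.06 in high livers, against 7.43, 6.02 and 7.72 in low livers. The groups overlapped within every diet, and the mean was higher in high livers each time. The difference was 1.12 on the control diet, 1.13 with 0.05% quercetin and 0.74 on 1% quercetin, and 1.00 ± 0.29 over all livers (SE; n = 9 each, limma adjusted p = 0.987). The second probe set of the gene gave 1.03.

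Elovl3, a fatty acid elongase gene that REV-ERB represses, differed in the other direction. It ranged from 10.13 to 12.43 with a median of 11.81 in high livers and from 11.90 to 12.67 with a median of 12.32 in low livers. The high and low livers did not overlap on the control diet or on 0.05% quercetin, and on 1% quercetin 1 high liver had 12.43, above low livers at 11.90 and 12.05. The difference was -0.66 ± 0.22 (SE; n = 9 each, limma adjusted p = 0.987), with -0.81, -0.33 and -0.85 on the control, 0.05% and 1% quercetin diets. Nr1d2, Nfil3 and Elovl3 were, with Usp37, the 4 genes at the smallest adjusted p of the continuous score, 0.377.

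Wee1, a mitotic kinase with E-boxes in its promoter, differed by 0.39 ± 0.17, and Ppard, a lipid-sensing nuclear receptor, by -0.63 ± 0.21. Both had the same sign in each diet, with 0.39, 0.56 and 0.24 for Wee1 and -0.97, -0.62 and -0.31 for Ppard on the control, 0.05% and 1% quercetin diets. Ppard and Upp2 stood on the same list of output genes with differences of opposite sign.

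**Figure D4:**
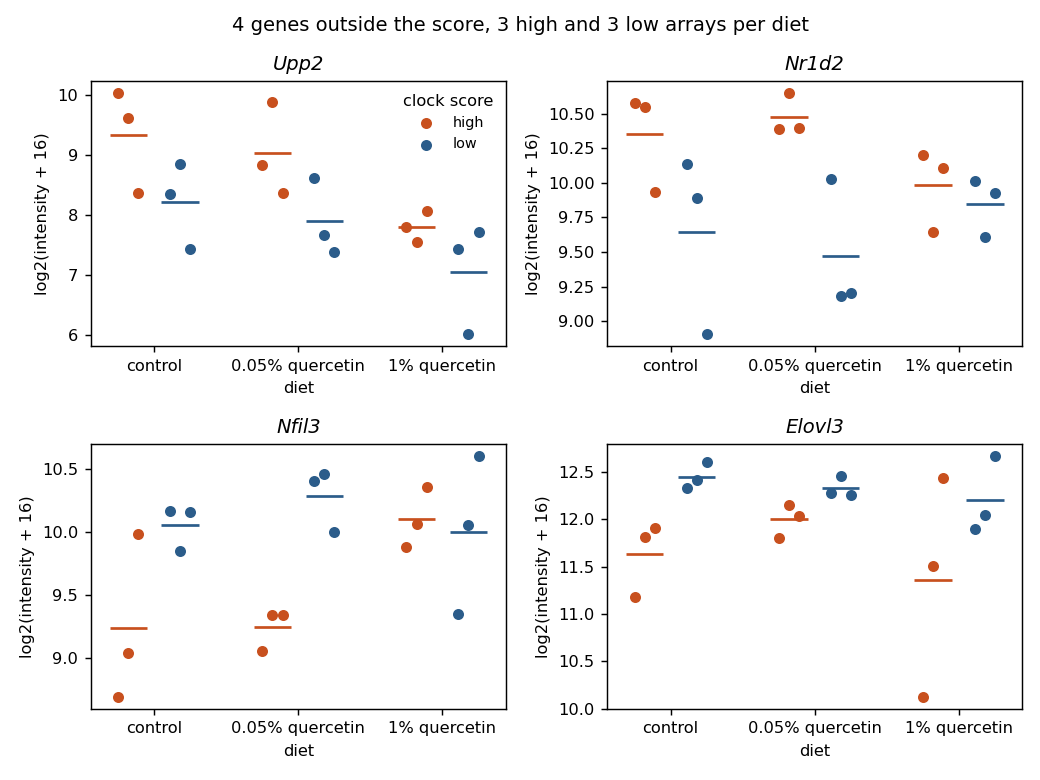
Levels of Upp2, Nr1d2, Nfil3 and Elovl3, log2(intensity + 16), in 3 high and 3 low livers of each diet, with a bar at each mean of 3. Upp2 and Nr1d2 have higher means in high livers on all 3 diets, Elovl3 has lower ones, and the Nfil3 means on 1% quercetin differ by 0.10 in the other direction from the other diets.

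The 20 genes with the smallest p had unadjusted p-values of 0.000166 to 0.00245 and differences of 0.24 to 0.88 in size, 3 higher and 17 lower in high livers, and 19 had the same sign in all 3 diets. None belongs to the clock lists. Since they were selected for small p, these counts are a description. Tnpo2, a nuclear import receptor, ranged from 6.15 to 6.67 with a median of 6.51 in high livers and from 6.67 to 6.89 with a median of 6.77 in low livers, with a single pair of livers meeting at 6.67. Its difference was -0.31 ± 0.07 (SE; n = 9 each, limma adjusted p = 0.987), and its other probe sets gave -0.10 to 0.04.

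Tnpo2, Lysmd3, Mtfr2 and Spsb3 were the 4 genes whose high and low livers did not overlap within each of the 3 diets, in the same direction (0.0311% of the genes tested), and all 4 were lower in high livers. Mtfr2, a gene of mitochondrial fission, differed by -0.37 ± 0.10, and Spsb3, which encodes a SOCS box protein, by -0.24 ± 0.06. Mtfr2 was dim, with 4.15 to 4.96 in high livers and 4.83 to 5.18 in low livers, near the filter at 4.69. It had no other probe set above the filter. Lysmd3 differed by -0.35 ± 0.08, and its second probe set gave -0.37. Chka, the choline kinase that starts phosphatidylcholine synthesis, had the widest difference of the 20 genes, at -0.88 ± 0.23. It ranged from 7.71 to 9.01 with a median of 8.51 in high livers and from 8.28 to 10.41 with a median of 9.26 in low livers, and its other probe sets gave -0.79 and -0.71. The within-diet values of Chka were -0.77, -0.85 and -1.01 on the control, 0.05% and 1% quercetin diets.

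Rps27, a ribosomal protein gene read by 1 probe set, ranged from 5.79 to 6.97 with a median of 6.06 in high livers and from 6.17 to 7.64 with a median of 7.19 in low livers, a difference of -0.85 ± 0.19. Of 32 tested cytosolic ribosomal protein genes 26 were lower, with a list median of -0.05 that was 0.04 with the values as deposited and 0.01 with quantile normalization, and Rps27 was the 1 member with an unadjusted p under 0.05. Its probe set was dim beside the list, whose mean level was 11.10 to 11.41 in high livers and 11.23 to 11.51 in low livers. Higher in high livers were Cep89, a centrosome gene, at 0.30 ± 0.08, Sdr42e1, a short-chain dehydrogenase gene, at 0.35 ± 0.10, and Pex26, a peroxisome import gene, at 0.34 ± 0.09. The other probe sets of Cep89 gave -0.09 to -0.01, while Sdr42e1 and Pex26 had none above the filter. Also among the 20, and lower in high livers, were AI662270 (-0.35), Tcl1b1 (-0.32), Lsm12 (-0.33), Zfp78 (-0.37), Zfp9 (-0.76), 9930104L06Rik (-0.42), Zfp651 (-0.66) and Micalcl (-0.33).

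Of the metabolic and stress lists with at least 10 members tested, cholesterol synthesis and SREBP2 target genes had the highest median, 0.28, and 19 of 20 were higher in high livers. Members at an unadjusted p under 0.05 were Msmo1, a sterol oxidase gene (0.66 ± 0.22), Fdps, which makes farnesyl diphosphate (0.52 ± 0.19), Hsd17b7, a sterol reductase gene (0.36 ± 0.14) and Srebf2, which encodes SREBP2 itself (0.24 ± 0.11). Of these, Msmo1 had 0.46, 0.82 and 0.71 on the control, 0.05% and 1% quercetin diets. Fdps had -0.05, 1.29 and 0.33, and the list median was -0.03 on the control diet, 0.71 with 0.05% quercetin and 0.11 on 1% quercetin. By diet 9 of 20 members were higher on the control diet, 19 with 0.05% quercetin and 14 on 1% quercetin.

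Heat shock and temperature-responsive genes were lower in 16 of 17 cases with a median of -0.29, and the medians within diets were 0.02 on the control diet, -0.71 with 0.05% quercetin and 0.05 on 1% quercetin. Hsph1, a large heat shock protein gene, had -0.04, -1.64 and 0.06 on these diets, and without the 0.05% quercetin diet its difference was 0.01. Of 24 unfolded protein response genes 22 were lower, with a median of -0.11, and within diets the medians were 0.00, -0.47 and 0.15. NRF2 target genes were lower in 16 of 19 cases with a median of -0.22, here with -0.25, 0.10 and -0.44 on the control, 0.05% and 1% quercetin diets. Osgin1, an oxidative stress gene of that list, differed by -0.58 ± 0.22. With the values as deposited the median over all genes was 0.07, and the heat shock list was lower in 13 of 17 cases, the NRF2 list in 14 of 19 and the unfolded protein response list in 13 of 24.

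Other lists had medians of opposite sign on different diets. Acute phase genes, made by hepatocytes under inflammatory signals, were higher in 24 of 27 cases on the control diet, 0 of 27 with 0.05% quercetin and 24 of 27 on 1% quercetin, with medians of 0.20, -0.82 and 0.39. Fatty acid and triglyceride synthesis genes were higher in 0 of 29, 28 of 29 and 13 of 29 cases with medians of -0.27, 0.68 and -0.05. Genes of fatty acid oxidation and PPARA targets were higher in 7 of 37, 35 of 37 and 3 of 37 cases with medians of -0.17, 0.26 and -0.24. Male-biased liver genes, Elovl3 among them, were higher in 0 of 12 cases over all livers, or 5 of 12 with the values as deposited. By diet their medians were 0.28, -0.49 and 0.04. Female-biased liver genes were higher in 8 of 9 cases over all livers, with medians of -0.51, 1.93 and -0.25 by diet. The within-diet counts rest on 3 livers against 3 and carry no test of their own.

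**Figure D5:**
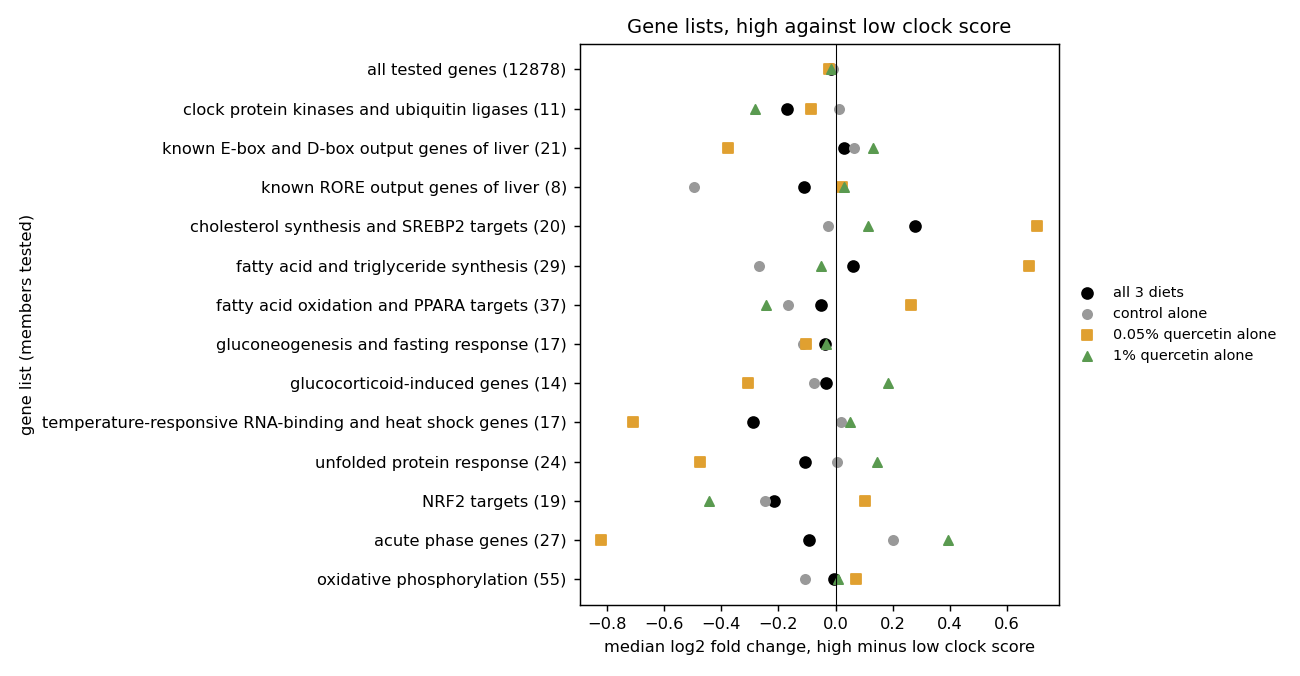
Median difference between high and low livers on the log2(intensity + 16) scale (x axis) of 13 gene lists and of all 12878 tested genes, over the 3 diets (black) and within each diet. The 0.05% quercetin median lies furthest from 0 for cholesterol synthesis (0.71), fatty acid synthesis (0.68), heat shock (-0.71), the unfolded protein response (-0.47) and acute phase genes (-0.82).

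Whether the difference between high and low livers differed between diets was tested in the same model. The moderated F test of limma called 0 of 12878 genes (0%), with 1472 at an unadjusted p under 0.05 (11.4%) and a smallest adjusted p of 0.128, for Marchf7, a ubiquitin ligase gene. Marchf7 had differences of 0.02 on the control diet, 0.82 with 0.05% quercetin and -0.47 on 1% quercetin. Of the acute phase genes 17 of 27 (63%) had an unadjusted p under 0.05 in this test, as did 13 of 24 genes of the unfolded protein response (54.2%) and 10 of 17 heat shock genes (58.8%). Among the clock genes the kinase and ligase list had 3 of 11 and the clock repressors 1 of 6, which was Cry1. The REV-ERB and ROR list had 1 of 3, the dim Rorb, and the list of PAR bZIP factors with Nfil3 had 1 of 2, Nfil3. The E-box and D-box output list had 7 of 21 and the RORE output list 3 of 8. Each list is read beside the 11.4% over all genes, and none of its members passed after adjustment.

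In the 0.05% quercetin livers other measures moved with the score. The 3 high livers were replicates 4, 5 and 6 and the 3 low livers replicates 1, 2 and 3. Replicate 6 was a high liver and replicate 1 a low liver in all 3 diets. The array median before scaling was 7.08 to 7.21 in high livers and 6.72 to 6.97 in low livers, and the mean level of 27 acute phase genes was 9.88 to 9.97 in high livers and 10.20 to 12.32 in low livers, with no overlap in either measure. The 3′ over 5′ log2 ratio of the Gapdh control probe sets was -0.32 to -0.26 in high livers and -0.16 to -0.02 in low livers. On the control diet and on 1% quercetin these measures overlapped between the groups. With the acute phase mean as a covariate limma called 0 genes and 749 had an unadjusted p under 0.05, and the part of the other measures in the list differences was not tested.

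Medians of 11 cell type lists lay between -0.43, for the adipocyte list with 1 gene tested, and 0.06. The hepatocyte list was present in every liver, its mean running from 12.91 to 13.29 in high livers and from 12.95 to 13.41 in low livers. All 6 tested hepatocyte genes were lower in high livers with a median of -0.13, by diet -0.01, -0.34 and -0.01, and with the values as deposited 5 of the 6 were lower. Of the 72 tested genes of these lists, 3 had an unadjusted p under 0.05, a share near the 4.34% of all genes, and no result about cell types is read from them. These were Acta2, a contractile gene of stellate and smooth muscle cells, at 0.40 ± 0.12, Sox9, a bile duct gene, at -0.49 ± 0.16, and Hnf4a, a hepatocyte transcription factor gene, at -0.27 ± 0.11. In whole liver, fewer cells of a type and less RNA per cell cannot be told apart. The Kupffer cell and macrophage list was lower in 12 of 12 cases with a median of -0.10, and by diet the medians were -0.11, -0.45 and 0.21, with no member at an unadjusted p under 0.05. With the values as deposited 8 of the 12 were lower. The summed intensity of this list was 5731 to 8815 in high livers and 5459 to 10860 in low livers.

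Diet was fitted with and without the clock group as a term over all 12885 genes. Each diet gave 3 livers to either group. This term therefore could not change the size of a diet difference and acted only through its error. For this reason the counts with and without it do not show whether diet calls depended on the clock groups. For 1% quercetin against control, limma called 1 of 12885 genes with the term and 1 without it (0.00776% each), Tead1 in both, a transcription factor gene of the Hippo pathway. Its difference was 0.61 with an adjusted p of 0.0185 with the clock group and 0.0225 without, and 0.59 with an adjusted p of 0.0397 when the continuous score was the term. The call was lost without any 1 of control replicates 1, 2 and 5 or 1% quercetin replicates 1, 2, 3 and 5, and there were 3 calls without control replicate 3 or 4. The numbers at an unadjusted p under 0.05 were 1105 with the clock group (8.58%) and 1099 without (8.53%). For 0.05% quercetin against control, limma called 0 genes either way (0%), with 655 at an unadjusted p under 0.05 with the clock group (5.08%) and 656 without (5.09%). The smallest adjusted p in that comparison was 0.217 with the clock group and 0.177 without. The 2 diet comparisons share the control livers.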

How the data were processed

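Total RNA of 18 mouse livers was measured on Affymetrix arrays of 45101 probe sets, 64 of them controls, which were left out. The authors deposited 1 table of linear intensity values per probe set, from 0.0118 to 18108, with array medians of 14.2 to 22.0; the software that made the signals, and its scaling, were not given in the labels used here, and the 18 arrays limit the precision. Gene symbols came from the platform annotation: 34945 probe sets had 1 symbol, 932 several and 9160 none, and only those with 1 symbol were used. Values were taken as log2(intensity + 16), the probe set with the highest mean stood for a gene, genes with a mean above the 40th percentile (4.69) were kept (12885 of 18193), and array medians over these genes were equalised.

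Tests were two-sided, with lmFit and eBayes of limma 3.58.1 in R 4.3.3, diet as a block, and Benjamini-Hochberg adjustment over the 12878 genes outside the score, called at an adjusted p under 0.05. Differences of the split between diets were tested with a moderated F test, and diets with the clock group as a term. Simulated data had 9 arrays against 9 and 12885 genes, with 50 genes set to differ at each size (0.5, 1, 1.5 and 2). Of these, 64% of the genes set to differ by 0.5 and 96% of those set to differ by 1 were called. There were 12 false calls. These shares need not hold where fewer genes differ, since the adjustment then asks for smaller p-values. Nor need they hold for genes of wide spread, such as Upp2 with an SE of 0.29 where the median SE was 0.11. Of 18 pairs of arrays with the same replicate number in different diets, 3 had deviations that correlated above 0.1 (range -0.47 to 0.32). Whether the numbers follow an order that touches the clock genes was not tested. Of 153 pairs of arrays none was identical, and correlations ran from 0.960 to 0.989. The text names the scoring genes, all tested clock list members and, as fewer than 5 genes were called, the 20 smallest p. List members at an unadjusted p under 0.05 were named after their values were seen, and so were Marchf7, Usp37 and Tead1. The split, the lists and the named genes were chosen with earlier results of these data known. Settings tried were other scalings, filters, pseudocounts, probe set summaries, splits and covariates, the replicate block, and leaving out each array or diet.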

Additional observations from a re-analysis of the deposited data

Results flagged for a closer look

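Of 101 groups checked, mainly the 9 high or the 9 low livers for the scoring genes, the clock list members and the 20 genes with the smallest p, 9 held a value far from the rest by Dixon's test. Chance marks about 1 in 20 groups. Levels are log2(intensity + 16). In high livers these were Per2 at 8.38 in control replicate 2, where the next value was 7.09, Fbxw11 at 10.65 in 0.05% quercetin replicate 5, where the next was 10.86, Rps27 at 6.97 in control replicate 4, where the next was 6.34, B3gat3 at 7.72 in 1% quercetin replicate 5, where the next was 7.56, and Sh3bp1 at 4.74 in 0.05% quercetin replicate 4, where the next was 5.12. In low livers these were Arntl at 7.52 in 1% quercetin replicate 4, where the next was 8.11, Cry2 at 7.20 in 1% quercetin replicate 1, where the next was 6.32, Fbxw11 at 11.81 in the same liver, where the next was 11.08, and Vezt at 5.24 in 0.05% quercetin replicate 1, where the next was 5.56. Arntl helped to choose the groups, so its value is a description. Control replicate 2 had the highest clock score of all livers, and 1% quercetin replicate 4 was the low liver nearest the division of its diet.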

How the results depend on the processing

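Under every setting run, 0 genes passed between high and low livers, and none of the 63 named genes outside the score passed in any of 1638 values. Counts at an unadjusted p under 0.05 moved by over 1.5 times. With the values as deposited, 499 were higher and 54 lower. Quantile normalization gave 351 higher, and equal medians over all probe sets gave 161 lower. With no filter, which let in all 18193 measured genes, there were 888, of which 684 were lower. With a filter at the 60th percentile, which let in fewer genes, 219 were lower. These filter counts have another base than the 559 of 12878 genes (4.34%) in the main run, so they do not compare as shares. With 2 against 2 livers per diet there were 879, of which 614 were lower. The split from quantile normalized scores, which exchanges 2 livers, gave 1174, with 385 higher and 789 lower. With the replicate block 151 were lower. The difference of the split between diets had 3 calls with the values as deposited (D630024D03Rik, Gm17586 and Pnldc1) and 1 with the replicate block (Irak3). The 1% quercetin against control comparison had 0 calls with the replicate block. Replicate 6 was a high liver and replicate 1 a low liver in all 3 diets, so the block overlaps with the split. What the numbers stand for is not given, and an order behind them was not tested. Leaving out each array gave 425 to 823 genes at an unadjusted p under 0.05, 154 to 284 higher and 252 to 548 lower, the highest without 1% quercetin replicate 4. It gave 0 to 1 calls for the difference of the split (Cirbp, without 1% quercetin replicate 1), and 0 to 1 for 0.05% quercetin against control (Resf1, without 0.05% quercetin replicate 1). For 1% quercetin against control it gave 0 to 3, with 3 without control replicate 3 or 4 and 0 without control replicate 1, 2 or 5 or 1% quercetin replicate 1, 2, 3 or 5. Reversed values were mostly those of genes near 0 or unequal between diets. Lonrf3, reversed with the replicate block, was instead -0.45 with the same sign in all 3 diets. Per1 became 0.073 as deposited, 0.019 with quantile normalization, 0.0027 with the continuous score, 0.41 with the replicate block, 0.064 without the control diet and 0.011 without the 0.05% quercetin diet. Fbxl21 became 0.034 as deposited, 0.18 with the block and 0.06 without the 0.05% diet. Prkaa1 became 0.056 as deposited, 0.020 with the continuous score and 0.078 without the 1% diet. Timeless became -0.031 with the continuous score, -0.10 with the block and -0.0022 without the 1% diet. Rora became -0.020 with the continuous score, -0.0087 with the acute phase covariate and -0.16 without the 0.05% diet. With the block, Cry1 became 0.0086, Lonrf3 0.15 and Osgin1 0.017. Without the 0.05% diet, Hsph1 became 0.013 and Nr1d1 -0.055. Without the 1% diet, Per2 became -0.19, Csnk1e 0.11 and Prkaa2 0.058. Leaving out each array gave Per1 -0.15 to 0.079, Per2 -0.0135 to 0.29, Rora -0.043 to 0.058, Fbxl21 -0.12 to 0.014 and Prkaa1 -0.0805 to 0.0007. The causes were not tested. Leaving out a diet, and counting genes at an unadjusted p, were chosen after seeing the data.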

Other observations

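Some genes had wide differences of opposite sign on different diets, and those below were picked after their values were seen. Rgs16, a regulator of G protein signalling that is known as a fasting-responsive gene of periportal hepatocytes, differed between high and low livers by -0.28 on the control diet, 3.18 with 0.05% quercetin and -1.15 on 1% quercetin, and by 0.59 ± 0.77 over all livers (limma adjusted p = 0.987). Trib3, a pseudokinase gene of the stress response, differed by -0.32, 1.07 and -0.73 on the control, 0.05% and 1% quercetin diets, with an adjusted p of 0.211 for the difference between diets in limma. The acute phase gene Saa2 differed by 1.25, -4.66 and 1.88 on these diets, with an adjusted p of 0.271 for that difference in limma. Cirbp, an RNA-binding protein gene that is induced by cold, differed by 0.09, 1.21 and -0.30.

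Pdk4, the pyruvate dehydrogenase kinase gene of the fasting liver, and Igfbp1, a secreted binding protein gene raised in fasting, were the 2 members of the gluconeogenesis and fasting list at an unadjusted p under 0.05. Pdk4 ranged from 6.24 to 8.03 with a median of 7.84 in high livers and from 6.90 to 8.83 with a median of 8.37 in low livers. It differed by -0.71 ± 0.28 (limma adjusted p = 0.987), with -1.06, 0.06 and -1.14 on the control, 0.05% and 1% quercetin diets. Igfbp1 ranged from 9.85 to 12.86 with a median of 11.46 in high livers and from 11.03 to 12.63 with a median of 12.12 in low livers, and it differed by -0.70 ± 0.29 (limma adjusted p = 0.987). The other 15 members of the 17 tested had larger p-values and the list median was -0.04, close to the -0.01 of all genes. Elovl6, a long-chain fatty acid elongase gene, differed by 0.67 ± 0.26 (limma adjusted p = 0.987), with -0.10, 1.29 and 0.82 on the control, 0.05% and 1% quercetin diets.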
